A study of Mus musculus with 16 samples.

Results

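Genes that mark blood and lymphatic vessels, 10 in all, were followed in the lungs of T1α null mice and their wild type counterparts. The genes were chosen by name, as receptors, junction proteins and markers of endothelial cells: Kdr, Flt1, Flt4, Tek, Tie1, Eng, Pecam1, Cdh5, Nos3 and Lyve1. All 10 genes were on the array, with 13 of its 12488 probe sets, because Flt1, Flt4 and Tie1 had 2 probe sets each. Those of Flt1 and Flt4 are called here by the GenBank record they were designed on. The lungs came from T1α(-/-) and T1α(+/+) mice of heterozygous crosses, taken at term, shortly after delivery, or at embryonic day (E) 18.5. T1α, the product of Pdpn, is a membrane protein of alveolar type I cells, and also of lymphatic endothelium. The mice lacked it in every cell. There were 3 term T1α(-/-) lungs (F to H), 3 term T1α(+/+) lungs (N to P), 5 E18.5 T1α(-/-) lungs (A to E) and 5 E18.5 T1α(+/+) lungs (I to M), each on 1 Affymetrix U74Av2 array of whole-lung RNA. The labels gave no litter, sex or hybridization batch, so p-values measured the spread between these lungs.

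Endothelial cells line all vessels, and in the lung they form the capillary side of the gas exchange barrier. They are guided by vascular endothelial growth factors (VEGF), which bind the receptor tyrosine kinases Kdr, Flt1 and Flt4, and by angiopoietins, which bind Tek, the partner of the orphan receptor Tie1. Cdh5 and Pecam1 hold neighbouring endothelial cells together, Eng is a co-receptor for ligands of the TGF-β family, and Nos3 makes the nitric oxide that relaxes vessels. The fetal lung builds its distal capillary bed late in gestation, and blood flow through it rises steeply at birth.

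Pdpn, the gene removed, measured 9.0, 8.6 and 30.0 in term (-/-) lungs, against 88.5, 39.7 and 214.9 in term (+/+) lungs. At E18.5 it measured 1.4, 16.5, 19.8, 21.2 and 8.6 in (-/-) lungs, against 111.6, 114.0, 60.2, 135.5 and 126.0 in (+/+) lungs. Values are linear signals, scaled by the authors so that arrays can be compared, and every (-/-) lung was below every (+/+) lung of its age. One array stood apart: on (+/+) E18.5 replicate I the control spots that should stay empty averaged 35.3, against 3.58 to 11.1 on the other 15 arrays, so low signals on it were raised. The 3′ to 5′ signal ratio of GAPDH, a sign of RNA quality, was 0.827 to 2.63 in term (-/-) lungs, 0.853 to 2.55 in term (+/+) lungs, 0.972 to 1.72 in E18.5 (-/-) lungs and 0.961 to 1.59 in E18.5 (+/+) lungs.

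Cdh5 and 1 of the Flt1 probe sets passed the test for a rise towards birth, and no member was called between genotypes. Cdh5 was higher at term than at E18.5 in both genotypes, by 1.68-fold in (-/-) lungs and 2.07-fold in (+/+) lungs. The Flt1 probe set, D88690, was tested only because its term signals passed the filter on low values. No fold is given for it, since its E18.5 signals in (-/-) lungs were close to those of empty control spots, and its (+/+) call did not hold under several alternatives. Kdr, Tek, Tie1, Eng, Lyve1 and Flt4 passed in no comparison. Pecam1 was too dim to be tested in 2 of the 5 comparisons and Nos3 in all of them.

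RefSeq promoter sequences (GRCm38.p6; 250 bases before to 50 after the start that the table uses) were matched for 6 of the 10 genes: Eng, Flt1, Flt4, Kdr, Tek and Tie1. Shown are 3 of them, those of Flt1 and Kdr because they are the 2 receptors of VEGF-A, and that of Tie1 because it held the most copies of GGAA, the core letters bound by ETS transcription factors, which are active at many endothelial promoters. Capitals mark GGAA on either strand, so TTCC on the strand printed. The windows lie on the minus strand at chr5:147725962-147726261 (Flt1), chr5:75978406-75978705 (Kdr) and chr4:118489800-118490099 (Tie1), and are written 5′ to 3′ along the gene. The Flt1 and Kdr windows lie inside the gene spans given below, and the Tek window lies mostly inside its span. The start used for each of them is thus not the outermost one of the gene.
Flt1: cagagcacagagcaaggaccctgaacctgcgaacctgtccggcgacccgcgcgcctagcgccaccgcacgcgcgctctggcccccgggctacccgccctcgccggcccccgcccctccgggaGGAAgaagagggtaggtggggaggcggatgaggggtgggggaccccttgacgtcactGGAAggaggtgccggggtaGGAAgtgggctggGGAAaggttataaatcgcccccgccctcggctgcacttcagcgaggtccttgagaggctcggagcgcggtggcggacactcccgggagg
Kdr: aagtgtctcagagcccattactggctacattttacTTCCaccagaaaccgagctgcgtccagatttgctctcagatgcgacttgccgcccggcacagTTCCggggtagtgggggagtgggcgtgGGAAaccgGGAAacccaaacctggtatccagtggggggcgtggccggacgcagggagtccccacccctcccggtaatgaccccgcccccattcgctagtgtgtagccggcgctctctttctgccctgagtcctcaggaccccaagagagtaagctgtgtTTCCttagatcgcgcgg
Tie1: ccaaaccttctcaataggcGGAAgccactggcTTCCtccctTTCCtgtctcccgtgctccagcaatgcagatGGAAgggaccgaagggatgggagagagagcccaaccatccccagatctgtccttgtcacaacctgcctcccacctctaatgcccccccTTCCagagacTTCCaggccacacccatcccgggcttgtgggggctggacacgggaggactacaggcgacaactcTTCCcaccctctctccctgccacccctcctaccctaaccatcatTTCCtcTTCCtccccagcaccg

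The Flt1 window held 4 copies of GGAA, Kdr 5 and Tie1 9, against 4 in Eng and 2 each in Flt4 and Tek. GGAA is a common word: 96.0% of 32851 mouse promoters of this length held it, with a median of 3 copies and 6 at the 90th percentile, so that Tie1 alone of the 6 exceeded that percentile. The Flt1 window also held 1 TATAAA, present in 13.6% of all promoters, and 1 TGACGTCA, the full cyclic AMP response element, present in 1.79%. That element was picked after the sequence had been read. The hypoxia response core ACGTG, present in 19.6% of promoters, was in none of the 6 windows. These are matches of letters only.

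Flt1, the VEGF receptor that also yields a soluble decoy form, lies at chr5:147561604-147726438 (gene positions are those of GRCm38.p6). Its probe set D88690 measured 75.0, 88.9 and 56.5 in term (-/-) lungs and 97.2, 107.4 and 59.1 in term (+/+) lungs. Its E18.5 signals were 12.1, 18.4, 11.5, 14.6 and 9.9 in (-/-) lungs and 30.4, 15.2, 75.0, 26.5 and 36.6 in (+/+) lungs. All 3 term (-/-) lungs were above all 5 E18.5 (-/-) lungs, whereas in (+/+) lungs the groups overlapped through replicate K at E18.5 (75.0) and replicate P at term (59.1). The log2 fold change, term over E18.5 on signal plus 16, was 1.60 ± 0.25 (SE) in (-/-) lungs (limma adjusted p = 0.00111, exact permutation p = 0.0357, n = 3 and 5) and 1.04 ± 0.34 in (+/+) lungs (limma adjusted p = 0.0428, exact permutation p = 0.0714). In this and the other comparisons of 3 with 5 lungs 0.0357 was the smallest p the exact test allowed. The (+/+) call was lost when any of 6 of the 8 lungs was left out (adjusted p up to 0.186, without replicate N) and with the GAPDH ratio as covariate (adjusted p = 0.143), no filter (0.0862) or the methods' t-test (0.126). This probe set entered both time tests only through term, where it was high, and its E18.5 (-/-) signals were close to those of the empty control spots on the same arrays (5.81 to 11.1).

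The second Flt1 probe set, D88689, moved less. It measured 104.8, 90.5 and 80.7 in term (-/-) lungs and 85.1, 97.0 and 108.6 in term (+/+) lungs, against 78.0, 82.6, 76.3, 57.9 and 44.3 in E18.5 (-/-) lungs and 91.2, 46.3, 49.8, 41.1 and 45.8 in E18.5 (+/+) lungs. The log2 fold changes towards term were 0.38 ± 0.22 in (-/-) lungs (limma adjusted p = 0.200) and 0.71 ± 0.27 in (+/+) lungs (limma adjusted p = 0.0780). Replicate I, the array with raised low signals, was the only E18.5 (+/+) lung that overlapped with term. Without it the (+/+) log2 fold change was 0.87 and passed the test (limma adjusted p = 0.02). In (+/+) lungs, however, this probe set was tested only through term, where it was high. Its E18.5 (+/+) median, 46.3, was below the filter level of 52.5. Which transcript forms each of the 2 probe sets detects was not determined here.

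Kdr, the main signalling receptor of VEGF-A (chr5:75932827-75979072), measured 97.0, 99.1 and 195.8 in term (-/-) lungs and 106.4, 109.7 and 207.5 in term (+/+) lungs. At E18.5 it measured 129.7, 139.1, 122.3, 95.4 and 103.5 in (-/-) lungs and 114.4, 88.7, 127.6, 89.2 and 97.7 in (+/+) lungs. One lung of each genotype at term, H and P, was high, and the other 4 term lungs lay within the E18.5 range. The log2 fold change towards term was 0.08 (95% interval -0.44 to 0.59) in (-/-) lungs and 0.35 (-0.21 to 0.91) in (+/+) lungs, with limma adjusted p of 0.833 and 0.370. Whether Flt1 and Kdr differed in their change was not tested.

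**Figure D1:**
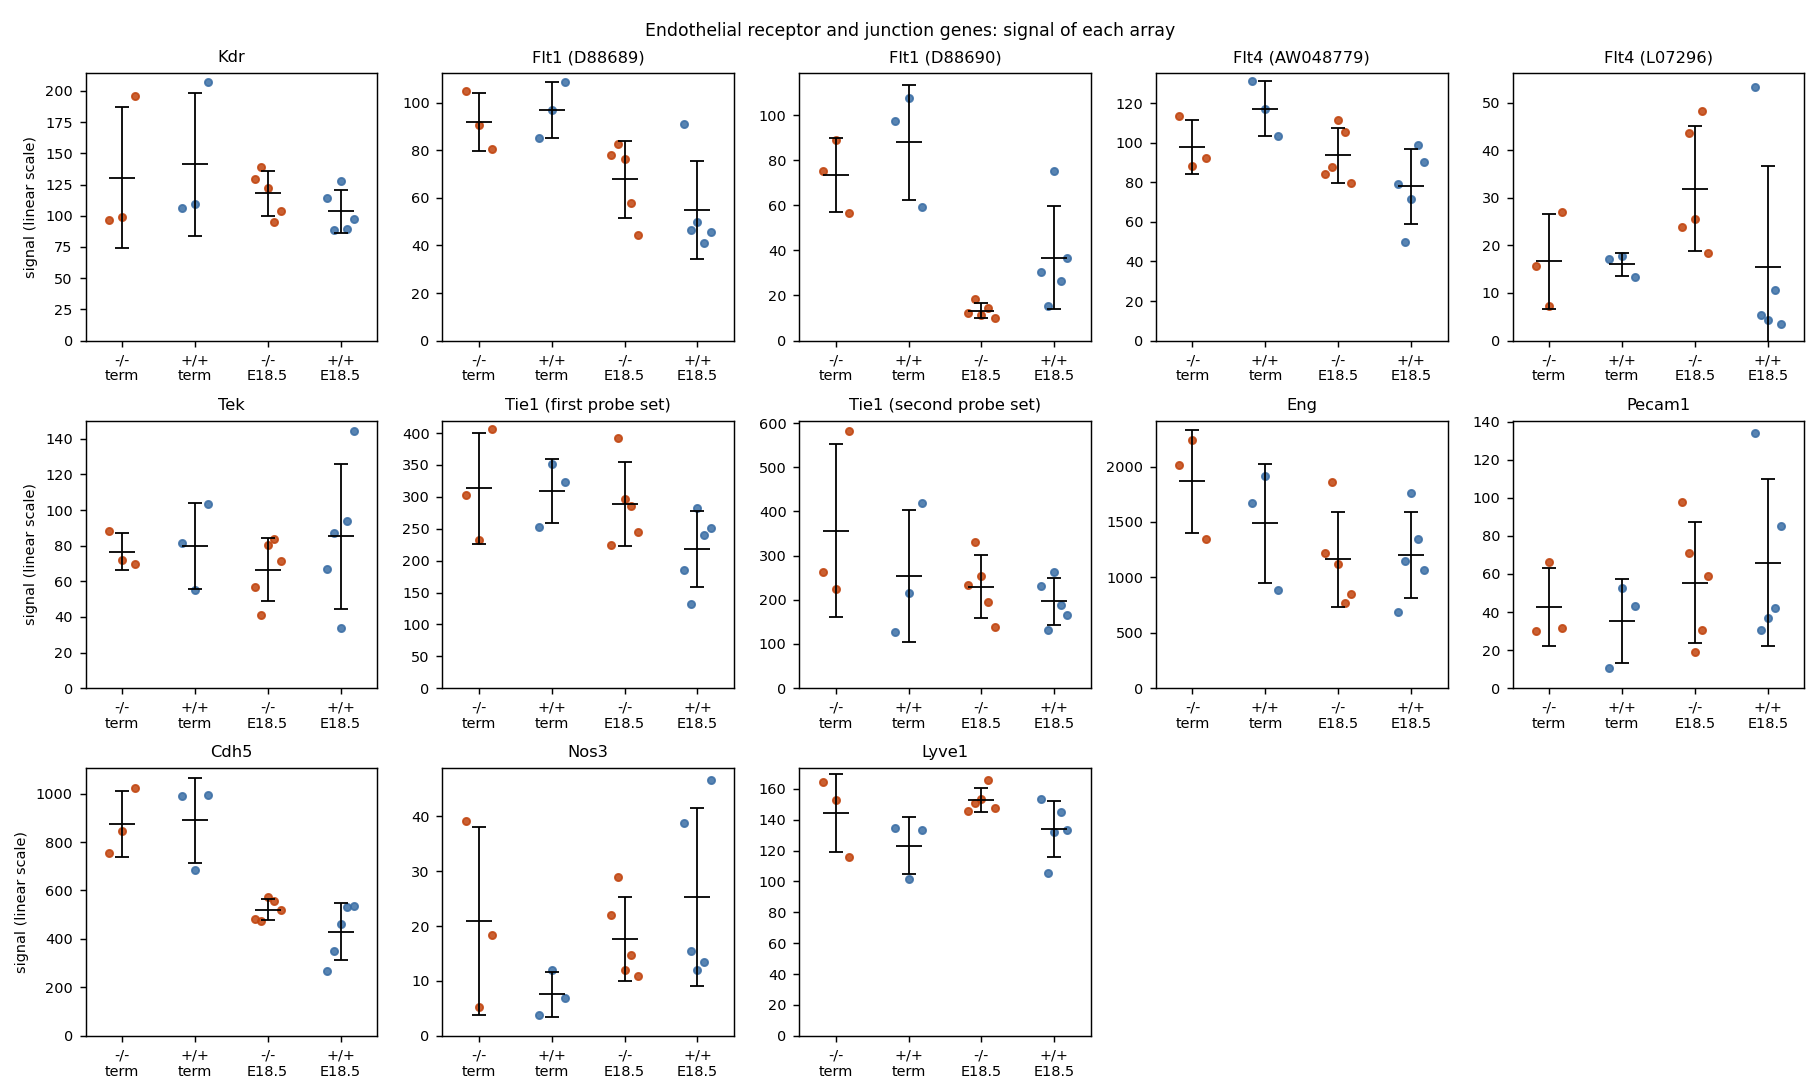
Signal of each array (linear scale) for the 13 probe sets, by genotype and age. Points are single lungs, horizontal marks are means and bars are SD (cut at 0 for Flt4 L07296). Cdh5 and Flt1 D88690 are higher at term, Cdh5 with no overlap in either genotype, and Flt1 D88690 with none in (-/-) lungs.

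Flt4, the receptor of VEGF-C and VEGF-D on lymphatic vessels (chr11:49609679-49652739), was read by probe set AW048779 at 113.4, 88.1 and 92.1 in term (-/-) lungs and 131.1, 117.2 and 103.2 in term (+/+) lungs. At E18.5 it gave 84.3, 87.7, 111.5, 105.7 and 79.9 in (-/-) lungs and 79.4, 49.8, 71.7, 98.9 and 90.3 in (+/+) lungs. In (+/+) lungs all 3 term values were above all 5 E18.5 values, a log2 fold change of 0.52 ± 0.25 that missed the adjusted threshold (limma adjusted p = 0.156, exact permutation p = 0.0357). In (-/-) lungs the groups overlapped, with a log2 fold change of 0.05 ± 0.19. The difference of those changes was -0.47 (95% interval -1.08 to 0.15, limma adjusted p = 0.9997), so no difference between genotypes was called. The other probe set, L07296, stayed between 3.5 and 53.2 and was below the filter on low signals in every comparison.

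Lyve1, the hyaluronan receptor of lymphatic endothelium (chr7:110850607-110862953), ranged from 101.7 to 165.5 over the 16 arrays. It measured 164.7, 152.9 and 115.8 in term (-/-) lungs against 134.9, 101.7 and 133.4 in term (+/+) lungs. Its signals at E18.5 were 146.0, 150.8, 153.6, 165.5 and 147.5 in (-/-) lungs against 153.2, 105.2, 132.1, 144.9 and 133.4 in (+/+) lungs. The E18.5 groups overlapped through replicate I, and the log2 fold change was 0.18 (95% interval -0.17 to 0.53). Its exact permutation p of 0.0476 was unadjusted and 1 of 13 such tests at that age, and limma gave an adjusted p of 0.902.

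Tek and Tie1 form the angiopoietin receptor pair. Tek (chr4:94739086-94874976) measured 88.5, 71.8 and 69.7 in term (-/-) lungs and 81.5, 54.9 and 103.3 in term (+/+) lungs, against 56.8, 40.8, 80.2, 83.9 and 71.2 in E18.5 (-/-) lungs and 66.8, 87.4, 33.7, 93.9 and 144.6 in E18.5 (+/+) lungs. The 4 groups overlapped one another, and the E18.5 (+/+) lungs alone spanned 33.7 to 144.6. The log2 fold change between genotypes was -0.02 ± 0.24 at term and -0.22 ± 0.28 at E18.5.

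Tie1 (chr4:118471191-118489849) was read by its first probe set at 303.0, 232.3 and 405.7 in term (-/-) lungs and 253.4, 351.3 and 323.7 in term (+/+) lungs. At E18.5 it gave 224.2, 393.1, 297.1, 285.5 and 244.4 in (-/-) lungs and 185.0, 132.7, 282.8, 240.4 and 251.1 in (+/+) lungs. The E18.5 genotype difference, 0.40 (95% interval -0.08 to 0.87) on the log2 scale, was the largest of the tested members at that age and did not pass (limma adjusted p = 0.867). Its second probe set ranged from 127.7 to 581.3 among the 6 term lungs and gave an E18.5 difference of 0.20 ± 0.24.

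Eng, the co-receptor for TGF-β family ligands (chr2:32646595-32682669), measured 2017.4, 2237.2 and 1346.8 in term (-/-) lungs and 1670.7, 1912.6 and 881.6 in term (+/+) lungs. At E18.5 it measured 1219.9, 1858.9, 1119.6, 772.8 and 849.4 in (-/-) lungs and 687.0, 1149.6, 1758.6, 1343.1 and 1069.5 in (+/+) lungs. In (-/-) lungs only replicate B overlapped with term, and the log2 fold change of 0.71 ± 0.29 missed the threshold (limma adjusted p = 0.0837), passing it without B (0.90, adjusted p = 0.0203). In (+/+) lungs the change was 0.30 ± 0.35 with broad overlap.

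Cdh5, the VE-cadherin of endothelial adherens junctions (chr8:104101613-104144504), measured 756.7, 846.8 and 1023.6 in term (-/-) lungs and 988.2, 686.3 and 992.7 in term (+/+) lungs. The E18.5 lungs gave 482.4, 473.9, 572.9, 555.3 and 519.9 in (-/-) lungs and 266.9, 349.5, 460.6, 531.5 and 534.6 in (+/+) lungs. Every term lung of either genotype was above every E18.5 lung, and the E18.5 (-/-) lungs lay close together while the (+/+) lungs spanned 266.9 to 534.6. The log2 fold change towards term was 0.72 ± 0.19 in (-/-) lungs (limma adjusted p = 0.0168) and 1.05 ± 0.29 in (+/+) lungs (limma adjusted p = 0.0224), with an exact permutation p of 0.0357 in each. The (-/-) call was lost without replicate H (adjusted p = 0.0642), and the (+/+) call without J, N or P (adjusted p = 0.0528, 0.116 and 0.0534), while the size of the change stayed between 0.61 and 0.82 and between 0.90 and 1.22. In whole-lung RNA a larger share of endothelial cells and more Cdh5 RNA per endothelial cell cannot be told apart, and the same holds for every gene here.

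Pecam1, the adhesion molecule at endothelial cell borders (chr11:106654213-106715281), gave low and scattered signals. It measured 30.1, 66.2 and 31.8 in term (-/-) lungs and 10.6, 52.4 and 43.0 in term (+/+) lungs. At E18.5 it measured 97.8, 71.0, 19.0, 30.3 and 59.0 in (-/-) lungs and 134.3, 30.4, 37.1, 42.0 and 85.3 in (+/+) lungs, and all groups overlapped. This defining endothelial marker was thus read near the filter level, while Cdh5, Eng and Tie1 were read far above it. Nos3, the endothelial nitric oxide synthase (chr5:24364816-24384474), stayed between 3.8 and 46.6 over the 16 arrays, below the filter in every comparison.

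**Figure D2:**
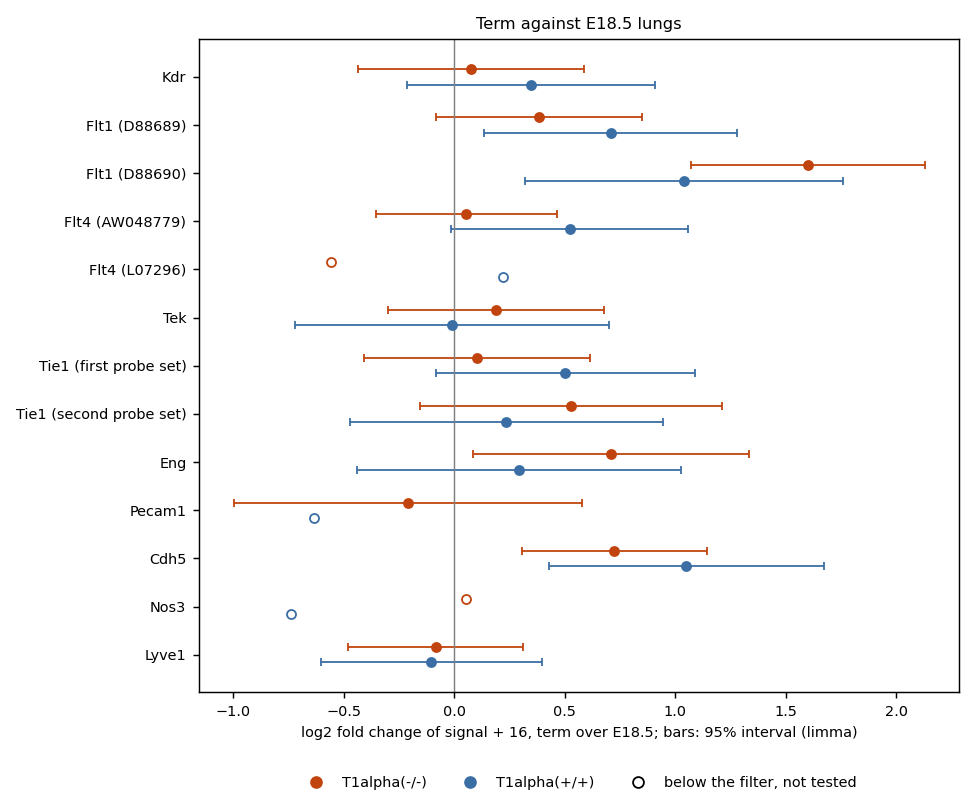
Log2 fold change of signal plus 16, term over E18.5, for each probe set in (-/-) and (+/+) lungs. Filled points are estimates with their 95% interval from limma, and open points are probe sets below the filter, not tested. Cdh5 (0.72 in (-/-) and 1.05 in (+/+) lungs) and Flt1 D88690 (1.60 and 1.04) passed in both genotypes. Flt1 D88690 was tested only through term, where it was high.

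Over the whole array, 26.7% of 6193 probe sets tested in (-/-) lungs changed towards term and 13.8% rose, and in (+/+) lungs 18.6% of 6145 changed and 10.6% rose (limma, adjusted p under 0.05). Against that, 2 of the 13 member probe sets rose in (-/-) lungs, of 11 tested, and 2 in (+/+) lungs, of 10 tested, and no member fell. In each genotype 1 of the 2 was Flt1 D88690, which entered the test only through term, where it was high. Groups that did not overlap were found for 30.6% of all probe sets tested in (-/-) lungs and 24.4% in (+/+) lungs, and for 2 members in each genotype. Counts this small are near the background. The split of the array moved with the scaling: 51.5% of the calls in (-/-) lungs and 56.9% in (+/+) lungs were higher at term, and 66.6% and 74.9% of them with arrays centred on their medians, which raised every log2 fold change by 0.106 in (-/-) lungs and 0.141 in (+/+) lungs. The median log2 fold change of the 10 genes was 0.09 in (-/-) lungs, with 8 positive and 2 negative, against -0.11 over the other 8240 genes, and 0.32 in (+/+) lungs, with 6 positive and 4 negative, against -0.17. Those other genes include dim ones, and over the probe sets tested the median was -0.06 in (-/-) lungs and -0.04 in (+/+) lungs.

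The genotypes were then compared at each age, the question the arrays were made for. None of the 10 member probe sets tested at term, and none of the 10 tested at E18.5, passed the adjusted threshold in limma, and none had an unadjusted p under 0.05. Nos3 was not tested at either age, and Pecam1 was not tested at term. Over the array 0% of 5885 probe sets passed at term, with 0.68% at an unadjusted p under 0.05, and 0.034% of 5879 passed at E18.5, with 5.31% unadjusted. In no member, tested or not, were the genotypes free of overlap, against 3.31% over the array at term and 1.14% at E18.5. The exact test could not go below 0.1 with 3 lungs against 3 at term, or below 0.00794 with 5 against 5 at E18.5.

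The intervals set how large a difference these lungs could still hold. For Cdh5 the log2 fold change, (-/-) over (+/+), was -0.01 (95% interval -0.59 to 0.56) at term and 0.31 (-0.14 to 0.76) at E18.5. For Kdr it was -0.11 (-0.84 to 0.62) at term and 0.17 (-0.22 to 0.55) at E18.5. For Flt1 D88689 it was -0.06 (-0.53 to 0.40) at term and 0.26 (-0.24 to 0.76) at E18.5. The widest interval of a genotype difference was that of the second Tie1 probe set at term, -0.51 to 1.49.

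Flt1 D88690 had the lowest exact permutation p of the members between genotypes at E18.5. In it 4 of the 5 (+/+) lungs were above all (-/-) lungs, and only replicate J, at 15.2, lay among them. Of those 4, replicate I, at 30.4, was below the mean of its own array's empty control spots, 35.3. Lyve1 and Flt4 L07296 likewise overlapped only through 1 (+/+) lung, replicate I, with the other 4 below all (-/-) lungs. The log2 fold change of Flt1 D88690 was -0.76 (exact permutation p = 0.0159, 1 of 13 unadjusted tests at that age). Both group medians, 12.1 in (-/-) lungs and 30.4 in (+/+) lungs, were below the filter level of 53.4, and with all probe sets tested its limma adjusted p was 0.988. The other dim members, Flt4 L07296 and Nos3, had log2 fold changes of 0.76 and -0.24 at E18.5.

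The median of the 10 genes was -0.01 at term, with 4 positive and 6 negative, against 0.01 over the other genes, and 0.17 at E18.5, with 6 positive and 4 negative, against -0.03. Over the probe sets tested the median was 0.01 at term and 0.04 at E18.5. The change of the genotype effect with age was called for none of 11 member probe sets tested, against 0% of 6458 probe sets (1.47% at an unadjusted p under 0.05, none of them a member). For Flt1 D88690 that change was 0.56 (95% interval -0.31 to 1.43). All 16 arrays enter it, so it shares lungs with each comparison above.

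**Figure D3:**
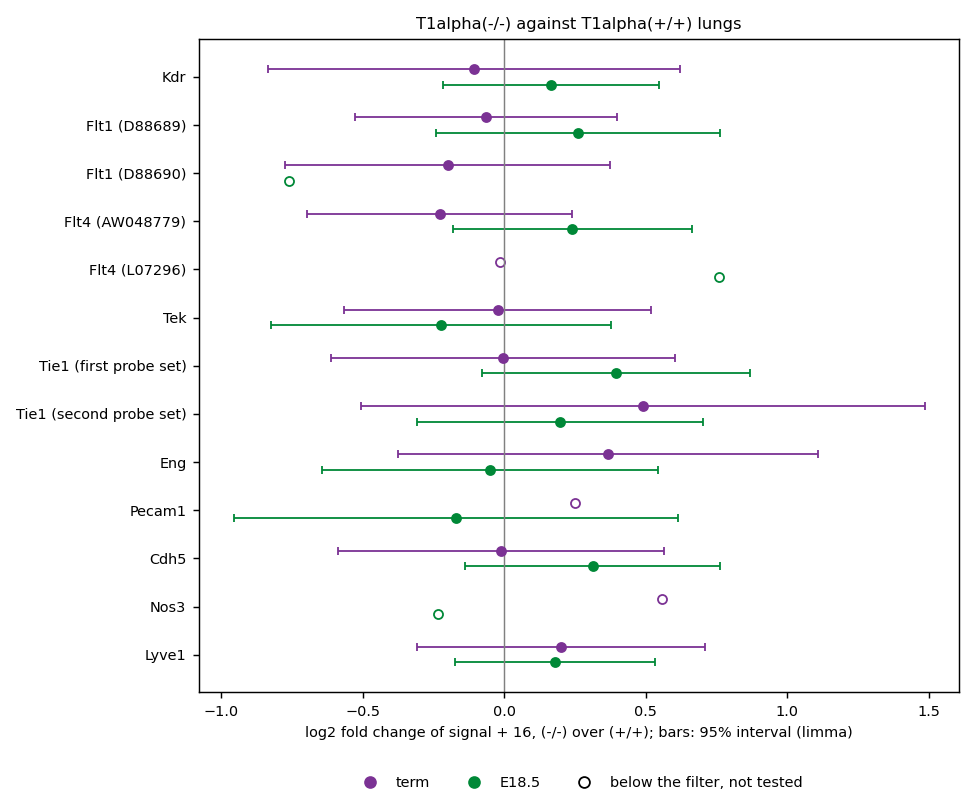
Log2 fold change of signal plus 16, (-/-) over (+/+), for the 13 member probe sets at both ages. Filled points are estimates with their 95% interval from limma, and open points are probe sets below the filter, not tested; every interval drawn includes 0.

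Vegfa, a ligand of receptors in the set, rose towards birth in both genotypes. Tgfb1, a ligand of the complex of another, also passed but was tested only through term, where it was high. Of 17 ligand genes on the array, from VEGF, angiopoietin and related families, 3 rose and 1 fell towards term in (-/-) lungs (12 tested). In (+/+) lungs 4 rose (13 tested), and the median log2 fold changes were 0.05 in (-/-) lungs and -0.06 in (+/+) lungs. Over all probe sets tested, 13.8% rose in (-/-) lungs and 10.6% in (+/+) lungs. These shares are the background for this and each later list. Vegfa, the main growth factor for Kdr and Flt1, measured 494.5, 310.0 and 482.1 in term (-/-) lungs against 157.9, 116.9, 176.4, 105.9 and 85.4 in E18.5 (-/-) lungs. In (+/+) lungs it measured 648.8, 287.3 and 653.6 at term against 113.7, 85.5, 282.7, 146.3 and 89.3 at E18.5. Within each genotype the ages did not overlap, narrowly so in (+/+) lungs (287.3 against 282.7), while the genotypes overlapped at each age. The log2 fold changes towards term were 1.63 ± 0.25 in (-/-) lungs (limma adjusted p = 0.00111) and 1.81 ± 0.37 in (+/+) lungs (limma adjusted p = 0.0040). Replicate K, the E18.5 (+/+) lung with the highest Flt1 D88690 signal, also had the highest Vegfa signal of that group. It was the highest there for Kdr, Eng, both Tie1 probe sets and the GAPDH ratio (1.59) as well, and the lowest for Tek. A link between Vegfa and Flt1 was not tested.

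Adm, the vasodilator peptide adrenomedullin, was higher at term by 1.83 ± 0.21 in (-/-) lungs and 1.80 ± 0.50 in (+/+) lungs on the log2 scale. Tgfb1, a ligand of the receptor complex that Eng belongs to, was higher by 1.62 ± 0.38 in (-/-) lungs and 1.87 ± 0.37 in (+/+) lungs (limma adjusted p = 0.000313 to 0.0219 for both genes). Both genes were tested only through term, where they were high. At E18.5 Tgfb1 measured 17 to 66.3 in (-/-) lungs and 8.2 to 31.7 in (+/+) lungs. Adm measured 27.7 to 57.4 and 10.7 to 117.6. Vegfc, a ligand of Flt4, rose by 1.23 ± 0.38 in (+/+) lungs, at 59.3 ± 26.8 at term against 16.1 ± 11.6 at E18.5 (SD, n = 3 and 5; limma adjusted p = 0.0359). It was tested there only through term. In (-/-) lungs it was below the filter and not tested, at 43.3 ± 10.5 at term against 18.04 ± 6.67 at E18.5. No ligand gene passed between genotypes at either age, and none had an unadjusted p under 0.05.

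Among 21 co-receptors and other endothelial receptors, 4 rose and 1 fell towards term in (-/-) lungs and 1 rose and 1 fell in (+/+) lungs, with 11 tested in each and median log2 fold changes of -0.05 and -0.18. Efnb2, the ephrin of arterial endothelium, rose by 1.56 ± 0.25 in (-/-) lungs and 1.10 ± 0.25 in (+/+) lungs (limma adjusted p = 0.00132 and 0.00684). In (-/-) lungs F2r, the thrombin receptor, and Itgav, an integrin chain, rose as well, by 0.95 ± 0.22 and 1.21 ± 0.19. In (+/+) lungs neither was called, but Itgav changed by 0.81 ± 0.29 (limma adjusted p = 0.0577). F2r averaged 2289 ± 519 at term there, against 1308 ± 497 at E18.5 (SD). Plxnd1, the endothelial semaphorin receptor, fell in (+/+) lungs by 1.02 on the log2 scale (adjusted p = 0.0170). It was lower at term in (-/-) lungs too, at 249 ± 68.5 against 483 ± 150 at E18.5 (SD). At E18.5 Efnb2 averaged 90.3 ± 30.9 in (-/-) lungs and 147 ± 21.8 in (+/+) lungs (SD, n = 5 each), a log2 fold change of -0.66 with an unadjusted limma p of 0.0084 that did not survive adjustment (0.858).

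The partners of Cdh5 at endothelial junctions divided. Of 16 genes, 1 rose and 2 fell in (-/-) lungs and 2 rose and 1 fell in (+/+) lungs, 13 tested in each, with medians of 0.03 and 0.08. Gja1 and Gja5 encode connexins of gap junctions, and they moved in opposite directions in both genotypes. Gja1 rose by 1.29 ± 0.19 in (-/-) lungs and 1.02 ± 0.32 in (+/+) lungs (limma adjusted p = 0.001 and 0.0388). Gja5, the connexin of arterial endothelium and atrial muscle, averaged 41.6 ± 21.6 at term against 134 ± 45.8 at E18.5 in (-/-) lungs and 47.2 ± 21.0 against 128 ± 37.6 in (+/+) lungs (limma adjusted p = 0.00614 and 0.0113). In (-/-) lungs Gja5 was tested only through E18.5, where it was high. Cldn5, the tight junction protein of endothelium, rose in (+/+) lungs to 1521 ± 491, against 686 ± 125 at E18.5, and averaged 1380 ± 204 at term against 892 ± 212 at E18.5 in (-/-) lungs. Jup, the plakoglobin that links cadherins to the cytoskeleton, fell in (-/-) lungs by 0.80 on the log2 scale (adjusted p = 0.0305). Between genotypes at E18.5, Gja4, a further arterial connexin, had the lowest unadjusted p of the list (0.000324, log2 fold change 0.83), with an adjusted p of 0.318.

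**Figure D4:**
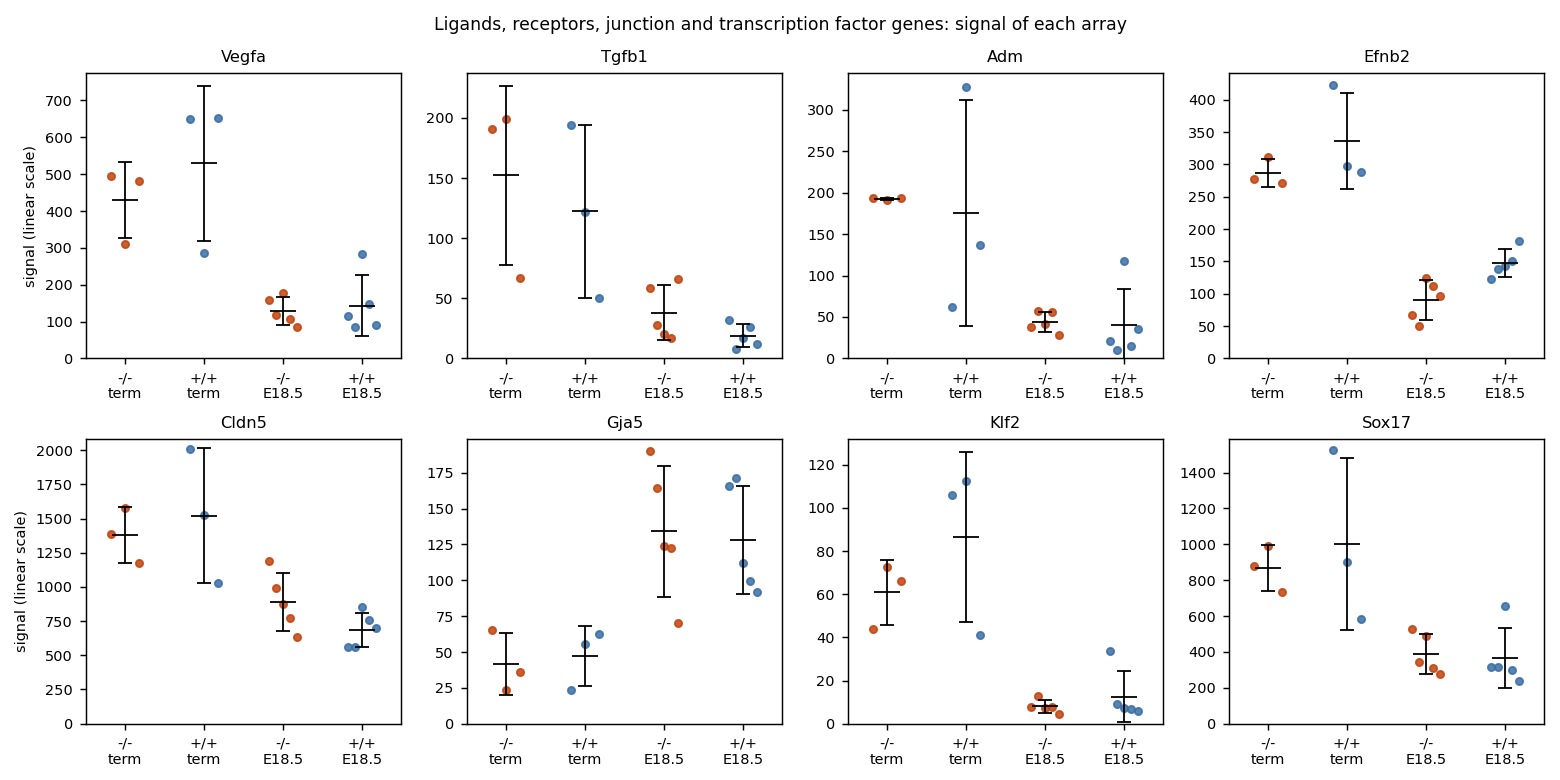
Signal of each array (linear scale) of 8 genes of the ligand, receptor, junction and transcription factor lists, by genotype and age. Points are single lungs, horizontal marks are means and bars are SD (cut at 0 for Adm); Vegfa, Efnb2 and Klf2 are higher and Gja5 is lower in all term lungs than in all E18.5 lungs of the same genotype.

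Of 21 transcription factors of endothelial cells, 5 rose and 1 fell in (-/-) lungs (15 tested) and 6 rose in (+/+) lungs (13 tested). Over all probe sets tested, 13.8% rose in (-/-) lungs and 10.6% in (+/+) lungs. The medians of the list were 0.00256 in (-/-) lungs and 0.26 in (+/+) lungs. Klf2, the factor that endothelium induces under flow, averaged 61.0 ± 15.0 at term against 8.16 ± 3.0 at E18.5 in (-/-) lungs and 86.6 ± 39.3 against 12.5 ± 11.8 in (+/+) lungs. It passed in both (limma adjusted p = 0.0014 in (-/-) lungs and 0.0046 in (+/+) lungs), but was tested only through term. Its E18.5 signals, apart from 33.5 on replicate I, were 4.7 to 13, and those of replicate I and the others were close to their arrays' empty control spots, so no fold is given. Klf4, its close relative, which epithelium expresses too, rose by 1.17 ± 0.25 in (-/-) lungs and 2.10 ± 0.37 in (+/+) lungs. Sox17, a factor of arterial endothelium, rose by 1.16 ± 0.24 in (-/-) lungs, and Foxf1, which lung mesenchyme also expresses, by 1.41 ± 0.30 in (+/+) lungs. Each is named for the genotype where its p was among the lowest. Sox17 also averaged 1003 ± 478 at term against 365 ± 167 at E18.5 in (+/+) lungs (SD). Foxf1 averaged 122 ± 19.2 against 88.8 ± 21.0 in (-/-) lungs (SD).

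In the nitric oxide and cyclic GMP pathway, where Nos3 itself was not readable, 1 of 11 genes rose in (-/-) lungs (7 tested) and 2 in (+/+) lungs (6 tested), with medians of 0.08 and 0.06. Gucy1b1, a chain of the nitric oxide receptor guanylate cyclase, rose by 1.14 ± 0.37 in (-/-) lungs and 1.53 ± 0.31 in (+/+) lungs (limma adjusted p = 0.0363 and 0.00368). Arg1, an arginase that competes for the substrate of nitric oxide synthases, rose in (+/+) lungs by 1.72 ± 0.42 (adjusted p = 0.0106), but was tested there only through term. Neither gene is confined to endothelium.

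In a wider list of endothelial markers almost no gene was called. Of 19, 15 were tested in each genotype, none was called in (-/-) lungs and 1 rose in (+/+) lungs, Ace, the angiotensin-converting enzyme of lung capillaries (0.97 ± 0.30, limma adjusted p = 0.0335), with medians of 0.09 and 0.10. Their summed signal was 3690 to 4602 in term (-/-) lungs and 3248 to 5404 in term (+/+) lungs, against 3362 to 4769 in E18.5 (-/-) lungs and 3037 to 5042 in E18.5 (+/+) lungs, so all groups overlapped. Of 7 lymphatic genes, only 2 were tested in (-/-) lungs, with none called, and 4 in (+/+) lungs, where Vegfc and Fgl2 rose. Both entered that test only through term, where they were high, and Vegfc is the gene already counted among the ligands. Both were below the filter in (-/-) lungs, where Fgl2 averaged 49.1 ± 29.3 at term against 17.7 ± 8.83 at E18.5.

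Markers of other cell types moved with age beside these results, and their part in them was not tested. The summed signal of 11 lung epithelial markers was 16213 to 20000 in term (-/-) lungs and 14969 to 16992 in term (+/+) lungs, against 24087 to 37568 in E18.5 (-/-) lungs and 18721 to 34283 in E18.5 (+/+) lungs, Sftpc alone giving 5027 to 24193 of it over the 16 arrays. In this list 2 genes rose and 3 fell in (-/-) lungs and 2 rose and 2 fell in (+/+) lungs: Sftpc and Sftpb, genes of surfactant proteins, fell in both genotypes, and Cldn3, an epithelial tight junction gene, rose by 1.05 in (-/-) lungs and 1.34 in (+/+) lungs on the log2 scale. The sum of 10 mesenchymal markers was 9067 to 13690 in term (-/-) lungs and 9213 to 11398 in term (+/+) lungs, against 14143 to 22173 in E18.5 (-/-) lungs and 11661 to 22645 in E18.5 (+/+) lungs, Eln alone giving 4493 to 16082 of it over the 16 arrays. Of these 1 rose and 2 fell in (-/-) lungs and 1 fell in (+/+) lungs: Col1a2 fell in both genotypes, and Pdgfra rose in (-/-) lungs by 1.09 on the log2 scale (limma adjusted p = 0.0131). The sum of 11 mural markers was 928 to 1294 in term (-/-) lungs and 1035 to 1353 in term (+/+) lungs, against 1050 to 2505 in E18.5 (-/-) lungs and 1409 to 2267 in E18.5 (+/+) lungs. Myh11, the smooth muscle myosin, fell in (+/+) lungs, where it was tested only through E18.5. Of 14 leukocyte genes 1 rose and 1 fell in (-/-) lungs and 1 rose in (+/+) lungs, Cd14 being the riser in both.

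The 9 heart muscle markers, a check for cardiac tissue, had no call at either age or between ages, with sums of 1506 to 13839 in term (-/-) lungs, 1718 to 7275 in term (+/+) lungs, 1757 to 7831 in E18.5 (-/-) lungs and 1281 to 20392 in E18.5 (+/+) lungs. The 4 platelet and megakaryocyte genes on the array were all below the filter, with sums of at most 79.8 on all arrays outside the E18.5 (+/+) group and of 28.3 to 229 in it. Between genotypes no gene of any of the 13 lists passed after adjustment at either age, or in the change of the genotype effect with age. In the leukocyte list, 3 genes, C1qa, C1qb and Csf1r, had higher means in E18.5 (-/-) lungs at an unadjusted limma p under 0.05 (adjusted p = 0.634 to 0.858), with sums over the list of 1872 to 3871 in (-/-) lungs against 1719 to 3159 in (+/+) lungs.

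Across the 16 arrays the 11 member probe sets that passed the filter in the fit of all arrays did not form 1 profile. The correlation of each with the mean of the others on the log2 scale was highest for the first Tie1 probe set (r = 0.67), Cdh5 (0.67) and Flt1 D88689 (0.66), and lowest for Pecam1 (-0.25), Tek (-0.18) and Lyve1 (-0.03). With group means removed, the 2 Tie1 probe sets kept the highest values, 0.59 and 0.49, and Cdh5 had 0.13. The 6 genes outside the set with the highest correlation with the members' mean, among 5854 probe sets, were Dab2ip (r = 0.92), Nrbp2 (0.87), Scarb1 (0.86), Rassf1 (0.86), Leng8 (0.86) and Fgfr4 (0.86). Dab2ip, a RAS GTPase-activating protein, averaged 141 at term and 86.7 at E18.5 in (-/-) lungs and 137 at term and 54.3 at E18.5 in (+/+) lungs. With group means removed its r was 0.81. The arrays share scaling and hybridization, so these values describe the 16 arrays only.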

How the data were processed

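Whole-lung RNA of 16 mice was hybridized to Affymetrix U74Av2 arrays. The authors made the deposited signal intensities with MAS 5.0 and scaled each array to a common level; the number of arrays, 3 or 5 per group, limits the precision. Here log2(signal + 16) was tested with limma 3.58.1 (lmFit, eBayes with an intensity trend; R 4.3.3), two-sided, with Benjamini-Hochberg adjustment over all probe sets tested (5879 to 6458 per comparison). The study's detection p-values were not used here: a probe set was tested if the median signal of at least 1 group exceeded a level (47.7 to 53.4) set from the mean share of present calls the methods state, and 66 control probe sets were left out. Exact permutation tests used Python 3.11.15 and scipy 1.17.1. Genes were named from the platform table: 10833 probe sets had 1 symbol, 396 several and 1193 none. For counts over genes the probe set of highest mean log2 signal stood for a gene. Gene positions and promoters are those of RefSeq GRCm38.p6. The members, the 13 gene lists and the tests were chosen with earlier results of these data known. Named were all members, Pdpn, up to 3 genes of lowest p per list and comparison, and the 6 genes most like the members; genes shown by array were picked among these after their values were seen. Alternatives were quantile normalization, median centering, no pseudocount or 64, no or a stricter filter, 1 fit of all arrays, no intensity trend, array weights, the GAPDH ratio as covariate, the methods' t-test and leaving out each array. No 2 arrays were copies: at most 1.16% of signals were equal in any of 120 pairs. Scripts were tested on simulated data.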

Additional observations from a re-analysis of the deposited data

Results flagged for a closer look

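In the 26 groups of 5 lungs examined (2 genotypes at E18.5 for each of the 13 member probe sets), 2 held a lung far from the others, and both were the (+/+) E18.5 replicate I. It measured 53.2 for Flt4 L07296, against 3.5 to 10.7 in the other 4 lungs of its group, and 91.2 for Flt1 D88689, against 41.1 to 49.8. Chance gives about 1 such group in 20. On the same array the empty control spots averaged 35.3 and the lower quartile of all signals was 29.8, against at most 11.1 and 14.9 on the others. Without it the E18.5 log2 fold change, (-/-) over (+/+), was 1.09 in place of 0.76 for Flt4 L07296 and 0.42 in place of 0.26 for Flt1 D88689.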

How the results depend on the processing

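No alternative called a member between genotypes, or in the change of the genotype effect with age. All counts here are at a limma adjusted p under 0.05. In (+/+) lungs the 2 member probe sets called higher at term became 1 with no pseudocount, no filter, a stricter filter or the GAPDH ratio as covariate, 0 with the methods' t-test, 3 with median centering, 1 fit of all arrays or array weights, which added Flt1 D88689, and 0 to 2 when 1 lung was left out. In the main fit Flt1 D88689, like Flt1 D88690, entered the (+/+) test only through term, where it was high. In (-/-) lungs the 2 became 1 with the stricter filter, which left Flt1 D88690 untested, 3 with quantile normalization or array weights, which added Eng, and 1 to 3 when 1 lung was left out. Whole-array counts ran, over the alternatives, between 0 and 3 at E18.5 (main count 2), 333 and 1939 for age in (+/+) lungs (1140), and 897 and 2252 for age in (-/-) lungs (1655). The median log2 fold change of the members with age in (+/+) lungs was 0.46 with median centering. Leaving out 1 lung gave medians of -0.20 to 0.043 for the change of the genotype effect and 0.045 to 0.26 for age in (-/-) lungs. Directions turned in uncalled members only. At term between genotypes, array weights gave 0.12 for Tek, 0.021 for the first Tie1 probe set and 0.0097 for Flt1 D88689, median centering 0.00173 for Cdh5 and 0.011 for the first Tie1 probe set, and the t-test 0.019 for that Tie1 probe set. Median centering gave -0.015 for the change of Lyve1's genotype effect, and 0.037 in (+/+) and 0.022 in (-/-) lungs for Lyve1 with age. With age in (+/+) lungs Eng was -0.035 with the GAPDH ratio, and Tek was 0.073 with quantile normalization, 0.13 with median centering, 0.0097 with no pseudocount and 0.25 with the GAPDH ratio. Leaving out 1 lung at a time, the E18.5 genotype difference spanned -0.24 to 0.10 for Eng and -0.37 to 0.086 for Pecam1. The term difference spanned -0.22 to 0.15 for Tek, -0.19 to 0.085 for Cdh5, -0.40 to 0.18 for Kdr, -0.20 to 0.18 for the first Tie1 probe set and -0.15 to 0.012 for Flt1 D88689. The change of the genotype effect spanned -0.00147 to 0.43 for Tek, -0.57 to 0.011 for Kdr, -0.097 to 0.16 for Lyve1 and -0.11 to 0.71 for the second Tie1 probe set. The change with age in (+/+) lungs spanned -0.24 to 0.19 for Tek, -0.18 to 0.013 for Lyve1 and -0.18 to 0.62 for the second Tie1 probe set, and in (-/-) lungs -0.22 to 0.23 for Kdr, -0.041 to 0.12 for Flt4 AW048779, -0.18 to 0.052 for Lyve1 and -0.090 to 0.29 for the first Tie1 probe set. The causes were not tested. No paired analysis was possible because the lungs of different groups share no replicate name. Low signal limits Nos3 and Flt4 L07296, below the filter in every comparison, Pecam1, below it in 2, and Flt1 D88690, near the empty control spots in E18.5 (-/-) lungs.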

Other observations

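The ratio of the 2 Flt1 probe sets, D88690 over D88689, was looked at after their signals had been seen, and is given with no test. It was 0.716, 0.982 and 0.700 in term (-/-) lungs, 1.14, 1.11 and 0.544 in term (+/+) lungs, 0.155, 0.223, 0.151, 0.252 and 0.223 in E18.5 (-/-) lungs, and 0.333, 0.328, 1.51, 0.645 and 0.799 in E18.5 (+/+) lungs. The E18.5 genotypes did not overlap in this ratio, with every (-/-) lung at or below 0.252 and every (+/+) lung at or above 0.328, while at term they did. How often ratios of other probe sets separate the genotypes was not counted, so no background share stands beside this. The 2 (+/+) lungs nearest to the (-/-) range were I, through a high D88689 signal, and J, through a low D88690 signal. The D88690 signals of the E18.5 (-/-) lungs, 9.9 to 18.4, were close to those of empty control spots on the same arrays, 5.81 to 11.1. On (+/+) replicate I the D88690 signal, 30.4, was below the mean of that array's empty control spots, 35.3. The separation thus rests partly on signals at background level.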
